A study of Mus musculus with 10 samples.

Results

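Neutrophil genes were followed in visceral adipose tissue of mice with pancreatic tumours. They are 10 genes chosen by name, S100a8, S100a9, Csf3r, Cxcr2, Retnlg, Ly6g, Mmp8, Ltf, Ngp and Camp, out of 29242 genes with a deposited TPM (transcript abundance scaled for gene length and library total). All 10 were listed with TPM, 8 stood in the table of 16667 genes with normalized counts, and 6 had a mean normalized count of at least 10 over all mice and were tested. The tissue came from 5 wild-type C57BL/6 mice aged 10 weeks that carried orthotopic KPC pancreatic tumours, and from 5 wild-type C57BL/6 mice of the same age after sham surgery. Orthotopic tumours grow in the organ of origin, here the pancreas, and KPC is the name the labels give to the tumours. The series is concerned with immunity in fat that wastes during cancer. The labels used here do not state the tumour line, tumour burden, time since inoculation or sex.

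Neutrophils are short-lived granulocytes made in the bone marrow, where the cytokine G-CSF drives their production and the chemokine receptor CXCR2 their release into blood. As they mature they pack granules in waves. Primary granule proteins such as myeloperoxidase come first, secondary granule proteins such as lactoferrin, cathelicidin and neutrophilic granule protein follow, and gelatinases and surface receptors come last. Transcripts of granule proteins are therefore found mostly in marrow precursors, while mature cells in blood and tissue keep S100a8, S100a9, Cxcr2, Csf3r and Retnlg. Resident neutrophils are rare in lean fat. In bulk tissue, a change in the number of neutrophils and a change in RNA per cell cannot be told apart.

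In GENCODE vM21, the annotation of GRCm38 (mm10) used here, all 10 genes are protein-coding and no other annotated gene overlaps them. S100a8 (chromosome 3, 90668978 to 90670035, plus strand) and S100a9 (chromosome 3, 90692632 to 90695721, minus strand) lie 22597 bases apart on opposite strands. Camp (chromosome 9, 109847379 to 109849617, minus strand), Ngp (chromosome 9, 110419747 to 110423012, plus strand) and Ltf (chromosome 9, 111019271 to 111042767, plus strand) fall within 1.2 Mb of each other. Mmp8 (7558456 to 7568485, plus strand) lies elsewhere on chromosome 9. The others lie on the plus strand of separate chromosomes, Csf3r on chromosome 4 from 126024550 to 126044440, Cxcr2 on chromosome 1 from 74153989 to 74161246, Retnlg on chromosome 16 from 48872621 to 48874496 and Ly6g on chromosome 15 from 75155240 to 75159126.

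Promoter sequences are shown for S100a8 and S100a9, the neighbours whose levels were highest, and for Csf3r, the member whose groups did not overlap. That of Ltf, the tested member with the smallest log2 difference, is also shown. Each runs 5′ to 3′ on the gene's strand from 250 bases before to 50 after the gene start of RefSeq on GRCm38.p6. Capitals mark the C/EBP core GCAAT and the PU-box GAGGAA, or their reverse complements, which do not overlap each other in these windows. C/EBP factors and PU.1 are the main transcription factors of granulocyte development.
S100a8, chr3:90668821-90669120, plus strand: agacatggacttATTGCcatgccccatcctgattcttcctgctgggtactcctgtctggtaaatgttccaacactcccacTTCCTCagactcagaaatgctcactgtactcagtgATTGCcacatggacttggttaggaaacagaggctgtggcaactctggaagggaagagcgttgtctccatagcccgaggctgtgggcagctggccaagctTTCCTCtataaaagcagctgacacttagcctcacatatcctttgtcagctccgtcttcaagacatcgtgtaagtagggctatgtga
S100a9, chr3:90695672-90695971, minus strand: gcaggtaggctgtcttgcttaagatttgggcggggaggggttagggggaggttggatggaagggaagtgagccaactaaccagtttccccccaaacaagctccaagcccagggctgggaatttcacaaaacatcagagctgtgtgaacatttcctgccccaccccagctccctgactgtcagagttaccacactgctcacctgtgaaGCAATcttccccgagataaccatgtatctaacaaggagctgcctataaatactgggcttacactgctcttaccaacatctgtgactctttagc
Csf3r, chr4:126024409-126024708, plus strand: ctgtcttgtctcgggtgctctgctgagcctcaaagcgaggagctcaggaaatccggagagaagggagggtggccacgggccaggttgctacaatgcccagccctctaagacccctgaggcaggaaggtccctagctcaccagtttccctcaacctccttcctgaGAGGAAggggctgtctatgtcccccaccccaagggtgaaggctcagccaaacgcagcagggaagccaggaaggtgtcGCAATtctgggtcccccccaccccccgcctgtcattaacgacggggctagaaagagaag
Ltf, chr9:111019042-111019341, plus strand: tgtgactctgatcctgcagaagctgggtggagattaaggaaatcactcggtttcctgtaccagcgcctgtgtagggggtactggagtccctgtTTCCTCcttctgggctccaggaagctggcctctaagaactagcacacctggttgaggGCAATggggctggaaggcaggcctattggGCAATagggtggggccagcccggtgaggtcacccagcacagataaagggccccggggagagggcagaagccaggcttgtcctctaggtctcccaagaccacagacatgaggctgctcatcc

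The core GCAAT was found, on either strand, in windows of 8 of the 10 genes and in 26.4% of all 32851 promoter windows of the same length. The PU-box GAGGAA was found in windows of 6 of the 10 genes and in 28.3% of all windows, and TATAAA in those of 4 genes and in 13.6% of all windows. S100a8 carried 2 copies each of GCAAT and GAGGAA, Csf3r 1 copy each, S100a9 1 copy of GCAAT and none of GAGGAA, and Ltf 2 copies of GCAAT and 1 of GAGGAA. Ltf held at least as many GCAAT copies as the other 3 windows. A match of letters is a description of the sequence and no evidence of binding.

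The libraries summed to between 20941200 and 24449900 normalized counts. Mitochondrial genes took 15.7% of TPM in KPC mouse 1 and 26.3% to 33.3% in the other 9 libraries, and KPC mouse 1 also had the lowest correlation with the rest, a median of 0.908 on the log2 scale against 0.939 to 0.959. Adipocyte genes (8 listed, Adipoq and Plin1 among them) summed to 24815 to 30355 TPM in KPC and 25589 to 34312 TPM in sham mice. Over all 14203 genes tested with limma, 7 (0.0493%) were called higher in KPC mice and 1 (0.00704%) lower at an adjusted p under 0.05. KPC mouse 1 stood apart for many genes below, and sham mouse 1 for some. Values with a mouse left out are given for some results, and other values may also move when 1 mouse is left out.

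None of the 6 tested neutrophil genes was called between KPC and sham mice by limma, where 0.0493% of all tested genes were called higher and 0.0563% in either direction. All 6 had a positive log2 difference, as had 46.9% of all tested genes, and their median log2 difference was 1.07, where the median over all tested genes was -0.02. The single gene with an unadjusted p under 0.05 was Csf3r, a share of 6 genes to be read beside the 7.61% of all tested genes that reached this p with a higher level in KPC mice. Csf3r was also the single member whose KPC mice all lay above all sham mice, which held for 2.75% of all tested genes. Mean TPM was higher in KPC than in sham mice for all 10 members, with KPC mouse 1 included or left out, and the median was higher for 8. The share of all genes with a higher mean or median TPM was not computed. Of these members, 5 averaged under 1 TPM in both groups. Without KPC mouse 1, Ly6g averaged 0.048 TPM in KPC mice, all of it from KPC mouse 2, against 0.034 TPM in sham mice. With KPC mouse 1, sham mouse 1 or both left out, limma again called 0 of the 6, where 0.465%, 0.0141% and 0.303% of all tested genes were called higher. Csf3r was again the 1 member without overlap in each case, beside 3.1%, 3.72% and 4.26% of all tested genes.

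**Figure D1:**
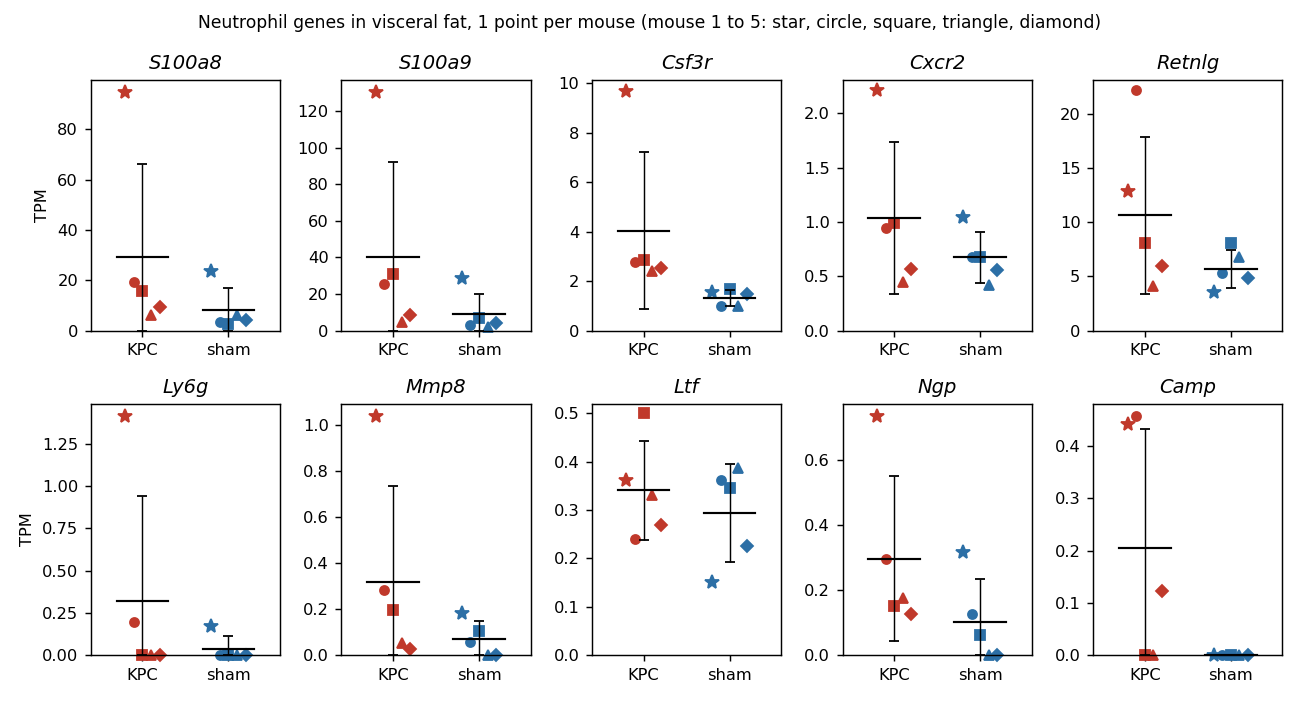
TPM of the 10 neutrophil genes in each of 5 KPC mice (red) and 5 sham mice (blue), with the mean (bar) and SD (whiskers, stopped at 0); every panel has its own linear axis from 0. KPC mouse 1 (red star) was the highest of all mice for 7 genes, and sham mouse 1 (blue star) was the highest sham mouse for 6; for Csf3r alone the groups did not overlap.

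S100a8 and S100a9 encode the subunits of calprotectin, a calcium- and zinc-binding protein that makes up much of the neutrophil cytosol and is also made by monocytes. S100a8 stood at 94.97, 19.4, 15.9, 6.01 and 9.22 TPM in KPC mice 1 to 5, against 23.5, 3.55, 2.58, 6.15 and 4.39 TPM in sham mice 1 to 5. KPC mouse 1 was far above all others, sham mouse 1 was above KPC mice 2 to 5, and the groups overlapped. The means were 29.1 ± 37.2 TPM in KPC and 8.03 ± 8.74 TPM in sham mice (SD, n = 5 each). Without KPC mouse 1 the KPC mean was 12.6 TPM, and without sham mouse 1 the sham mean was 4.17 TPM.

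S100a9 stood at 131, 25.7, 30.9, 4.86 and 8.58 TPM in KPC mice, against 28.6, 2.77, 6.81, 1.97 and 4.34 TPM in sham mice. Here KPC mice 1 and 3 lay above sham mouse 1, and KPC mice 1, 2, 3 and 5 lay above sham mice 2 to 5. The means were 40.2 ± 51.8 TPM in KPC and 8.91 ± 11.2 TPM in sham mice (SD, n = 5 each). Without KPC mouse 1 the KPC mean was 17.5 TPM, and without sham mouse 1 the sham mean was 3.97 TPM. The ratio of S100a9 to S100a8 in TPM ran from 0.809 to 1.94 over KPC mice and from 0.321 to 2.64 over sham mice, so the subunits' transcripts were of similar abundance in most mice.

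On the log2(normalized count + 1) scale, S100a8 differed by 1.61 ± 0.78 (SE), a fold of 3.04, with a limma adjusted p of 0.396. S100a9 differed by 1.96 ± 0.93 (SE), a fold of 3.89, with an adjusted p of 0.386 from limma. The 95% bounds reached from -0.10 to 3.31 and from -0.08 to 3.99. Both intervals held 0 and differences of several-fold.

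Single mice moved these values. Without KPC mouse 1 the log2 difference was 0.98 for S100a8 and 1.29 for S100a9, and without sham mouse 1 it was 2.14 and 2.59. With KPC mouse 1 and sham mouse 1 both left out, a step chosen after the values were seen, it was 1.52 for S100a8 (95% interval 0.52 to 2.52, limma adjusted p 0.208) and 1.92 for S100a9 (0.48 to 3.36, limma adjusted p 0.259). The lower bounds then lay above 0, and the adjusted p-values stayed over 0.05.

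**Figure D2:**
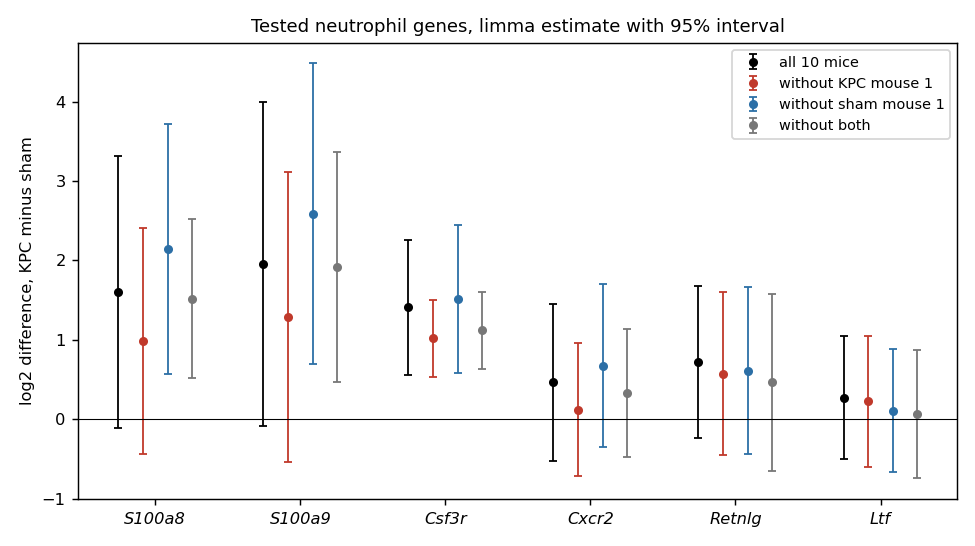
Limma estimates of the log2 difference, KPC minus sham, for the 6 tested neutrophil genes with 95% intervals, from all 10 mice (black) and without KPC mouse 1 (red), sham mouse 1 (blue) or both (grey). The Csf3r interval lay above 0 in all 4 fits; the S100a8 and S100a9 estimates moved most, from 0.98 to 2.14 and from 1.29 to 2.59.

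Csf3r and Cxcr2 are the receptors that steer neutrophils. Csf3r encodes the receptor for G-CSF and is expressed by neutrophils and, at lower levels, by monocytes. It stood at 9.69, 2.75, 2.84, 2.39 and 2.53 TPM in KPC mice, against 1.54, 0.980, 1.67, 0.988 and 1.48 TPM in sham mice. The lowest KPC mouse was above the highest sham mouse, and KPC mice 2 to 5 lay close together, at 2.63 ± 0.209 TPM (SD, n = 4), against 1.33 ± 0.325 TPM in sham mice (SD, n = 5).

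The log2 difference of Csf3r was 1.41 ± 0.39 (SE), a fold of 2.66 (95% interval 0.56 to 2.26 on the log2 scale), with a limma adjusted p of 0.189 over all genes tested. Without KPC mouse 1 it was 1.02 with a limma adjusted p of 0.0854. The gene was called in 1 of 22 alternatives: with limma array weights, which give less weight to libraries that fit worse, it differed by 1.18 with an adjusted p of 0.0460. The exact two-sided permutation test on TPM gave an unadjusted p of 0.00794, which is the lowest value possible with 5 mice in each group. In that test 4.86% of 19872 genes above 0 TPM had a higher level in KPC mice and a p under 0.05, and Csf3r was 1 of 10 neutrophil genes that did.

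Cxcr2, the receptor for CXCL1, CXCL2 and CXCL5, stood at 2.21, 0.944, 0.991, 0.451 and 0.567 TPM in KPC mice, against 1.05, 0.680, 0.676, 0.419 and 0.553 TPM in sham mice. KPC mice 2 to 5 lay within the range of the sham mice, and KPC mouse 1 alone was above sham mouse 1. The log2 difference was 0.47 ± 0.45 (SE; limma adjusted p 0.674), and it was 0.12 without KPC mouse 1 and 0.74 when KPC mouse 4 was left out. The 95% interval, from -0.52 to 1.46, allows a change either way.

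Csf3r and Cxcr2 share sequence with other genes. Of the distinct 31-base words in annotated Csf3r transcripts, 23.1% also occur, on either strand, in transcripts of other genes, and 12.1% of those of Cxcr2 do. The gene model AC105061.2 alone held 19.9% of the Csf3r words. For Cxcr2 the gene with the most was Dnajb14, with 3.32%. No word of S100a8, S100a9, Mmp8, Ltf, Ngp or Camp is shared. How the authors' counting divided such reads was not tested.

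Retnlg encodes resistin-like molecule gamma, a secreted protein of mouse neutrophils and bone marrow. It stood at 12.9, 22.2, 8.11, 4.08 and 5.96 TPM in KPC mice, against 3.54, 5.29, 8.07, 6.76 and 4.83 TPM in sham mice. KPC mouse 2, not KPC mouse 1, was highest, and sham mouse 1 was the lowest of all mice. The log2 difference was 0.72 ± 0.44 (SE; limma adjusted p 0.486), a fold of 1.65. Without KPC mouse 2 it was 0.39 (limma adjusted p 0.683).

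Retnlg shares 5.51% of its 31-base words with Retnla and with no other gene. Retnla, made by alternatively activated macrophages, stood at 1453 ± 331 TPM in KPC and 1055 ± 402 TPM in sham mice, far above the 10.7 ± 7.27 TPM of Retnlg in KPC and 5.70 ± 1.75 TPM in sham mice (SD, n = 5 each). The highest Retnla mouse was KPC mouse 4 at 1895 TPM, which was the lowest KPC mouse for Retnlg. Whether reads of Retnla were counted as Retnlg was not tested.

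Ly6g, the surface antigen that defines neutrophils in mice, was near 0. It stood at 1.42 TPM in KPC mouse 1 and 0.193 TPM in KPC mouse 2, against 0.172 TPM in sham mouse 1, and was listed at 0 in the other 3 KPC and 4 sham mice. Of its words, 9.55% occur in other genes, spread over 11 genes, and its relative Ly6i held the most, 4.39%. The exact permutation test gave p = 0.444, and with so many mice listed at 0 it could say little.

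Mmp8, neutrophil collagenase, stood at 1.04, 0.284, 0.194, 0.0503 and 0.0269 TPM in KPC mice, against 0.184, 0.0559, 0.106, 0 and 0 TPM in sham mice. KPC mice 1, 2 and 3 lay above the sham mice and KPC mice 4 and 5 did not. The exact permutation test gave p = 0.190 for a difference of 0.95 on the log2(TPM + 0.1) scale. Without KPC mouse 1 that difference was 0.47.

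The secondary granule genes Ltf, Ngp and Camp were all under 1 TPM in every mouse. Ngp, neutrophilic granule protein, stood at 0.734, 0.293, 0.149, 0.175 and 0.125 TPM in KPC mice, against 0.317, 0.127, 0.0606, 0 and 0 TPM in sham mice (exact permutation p = 0.0952). Camp, the cathelicidin antimicrobial peptide, stood at 0.442 TPM in KPC mouse 1, 0.458 TPM in KPC mouse 2 and 0.122 TPM in KPC mouse 5 and was listed at 0 in KPC mice 3 and 4, against all 5 sham mice listed at 0 (exact permutation p = 0.167). In normalized counts, Ngp ranged from 2.26 to 14.3 in KPC and from 0 to 6.48 in sham mice, so these levels rest on few reads.

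Ltf, the iron-binding protein lactoferrin, had the smallest log2 difference of the 6 tested members. It stood at 0.363, 0.239, 0.502, 0.331 and 0.268 TPM in KPC mice, against 0.151, 0.361, 0.345, 0.386 and 0.225 TPM in sham mice. KPC mouse 1, which had the most S100a8, was behind KPC mouse 3 and sham mouse 4 for Ltf, and sham mouse 1 was the lowest of all mice. The log2 difference was 0.27 ± 0.35 (SE; limma adjusted p 0.763), and leaving out sham mouse 1 gave 0.11 and leaving out KPC mouse 3 gave 0.12. With all mice the 95% interval of the Ltf difference ran from -0.50 to 1.05, which allows a change either way. Lactoferrin is also made by many glandular epithelia.

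In order of mean TPM, S100a9 and S100a8 came first in both groups, followed by Retnlg, Csf3r and Cxcr2. The means of S100a9 and S100a8 differed by less than the SD of either gene in both groups. The gap between S100a8 and Retnlg was smaller than the SD of S100a8 and larger than that of Retnlg in both groups. The remaining 5 genes, Ltf, Ly6g, Mmp8, Ngp and Camp, averaged under 1 TPM in both groups. S100a8 and S100a9 together made up 59.3% to 88.7% of the summed TPM of the 10 genes in KPC mice and 45.8% to 88.2% in sham mice.

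**Figure D3:**
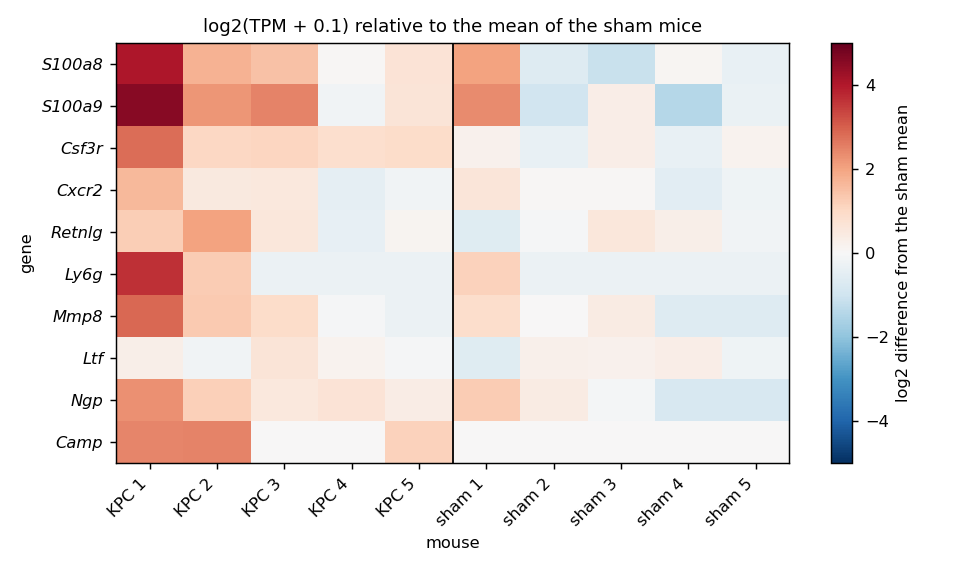
Difference of log2(TPM + 0.1) from the mean of the 5 sham mice (colour) for each neutrophil gene (rows) in each mouse (columns, KPC left of the line and sham right of it). KPC mouse 1 was high in nearly every row, KPC mouse 4 was close to the sham mean in most, sham mouse 1 was high for S100a8, S100a9, Ly6g, Mmp8 and Ngp, and the Csf3r row was positive in all 5 KPC mice.

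The KPC mice differed widely among themselves. The median over the 6 tested genes of the log2 difference from the sham mean was 2.41, 1.47, 1.05, -0.14 and 0.36 in KPC mice 1 to 5. The 10 genes summed to 254, 72.5, 59.6, 18.3 and 27.4 TPM in KPC mice, against 59.1, 13.8, 20.3, 16.7 and 15.8 TPM in sham mice. KPC mice 1, 2 and 3 lay above the highest sham mouse, KPC mouse 3 barely so, and KPC mouse 4 lay below sham mouse 3.

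The first number of the sample titles, whose meaning the labels do not give, was 1 for KPC mice 1 and 2 and sham mice 1 and 2. Within it the difference in mean log2(TPM + 0.1) was 2.21 for S100a8, 2.68 for S100a9 and 1.99 for Csf3r. Among the mice with number 2 (KPC mouse 3, sham mice 3 and 4) it was 1.97 for S100a8, 3.03 for S100a9 and 1.08 for Csf3r. Among those with number 4 (KPC mice 4 and 5, sham mouse 5) it was 0.75 for S100a8, 0.56 for S100a9 and 0.70 for Csf3r. The means of these 3 genes were higher in KPC mice within each number, but each mean rests on 1 or 2 mice. Within number 1, sham mouse 1 lay above KPC mouse 2 for S100a8 (23.5 against 19.4 TPM) and S100a9 (28.6 against 25.7 TPM). The means of Mmp8, Ltf and Ngp were also higher within each number. Retnlg differed by 0.13 within number 2 and 0.03 within number 4, Ly6g by 0 within both, and Camp by 0 within number 2. Cxcr2 was lower in KPC mice within number 4, by -0.11, and higher within the others.

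Other cells carry some of these transcripts, and their markers were also highest in KPC mouse 1. Monocyte markers (12 of 12 tested, Ly6c2, Ccr2 and Plac8 among them) summed to 911, 240, 265, 300 and 222 TPM in KPC mice 1 to 5, against 149 to 299 TPM in sham mice, of which sham mouse 1 had 175. Macrophage markers (12 of 12 tested) summed to 2934 TPM in KPC mouse 1 and 972 to 1388 TPM in the other KPC mice, against 556 to 896 TPM in sham mice, with sham mouse 1 the lowest. None of these 24 genes was called with all mice, 11 monocyte and 12 macrophage genes had a positive difference, and the medians were 0.85 and 0.89. Without KPC mouse 1 the medians were 0.50 and 0.73, and genes called higher by limma included the monocyte gene F10 (adjusted p 0.0411) and the macrophage genes C1qa (0.0238) and C1qb (0.0168). In that fit 0.465% of all tested genes were called higher. No marker of either list was at 0 in all mice, and the part of monocytes and macrophages in the S100a8, S100a9 and Csf3r levels was not tested.

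Red cells were considered because blood carries neutrophils. Red cell markers (9 of 9 tested, all positive, none called) summed to 40759, 20308, 10314, 8558 and 11236 TPM in KPC mice 1 to 5, against 12744, 9742, 6016, 4751 and 12883 TPM in sham mice 1 to 5. KPC mice 1 and 2, the highest for the summed neutrophil genes, were the highest here. The median log2 difference was 0.97, and 0.57 without KPC mouse 1. Sham mice 1 and 5 had nearly the same red cell sum, while S100a8 stood at 23.5 TPM in sham mouse 1 and 4.39 TPM in sham mouse 5. Platelet markers (4 of 9 tested) summed to 145 to 425 TPM in KPC and 136 to 196 TPM in sham mice, with KPC mouse 1 highest. The part of blood left in the tissue was not tested.

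**Figure D4:**
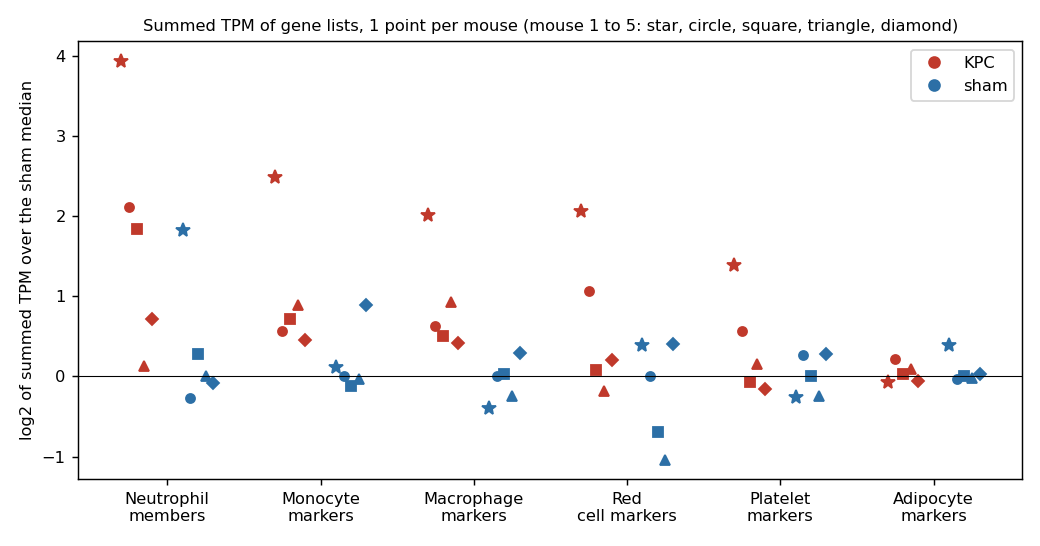
Log2 of the summed TPM of 6 gene lists relative to the median of the sham mice, 1 point per mouse, KPC mice (red) left of sham mice (blue) in each list. KPC mouse 1 (red star) was the highest for neutrophil, monocyte, macrophage, red cell and platelet lists; sham mouse 1 (blue star) was high for neutrophil genes and lowest for macrophage markers.

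Eosinophil markers, the other granulocyte of fat, had 6 of 9 genes tested, 4 of them positive and none called, and the eosinophil peroxidase gene Epx was at 0 in every library. Mast cell and basophil markers had 7 of 9 genes tested, 2 positive and none called. Their summed TPM overlapped for mast cells and basophils, at 32.8 to 79.9 in KPC and 46.7 to 70.3 in sham mice. Eosinophil sums were 41.5 to 91.4 TPM in KPC and 18.4 to 35.8 TPM in sham mice, most of it from Ear2, which macrophages also express.

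Of 25 further genes listed for mature neutrophils, 16 were tested, 13 with a positive difference and 0 called, and their median log2 difference was 0.97 (11 positive, 0 called and 0.70 without KPC mouse 1). Lrg1, a glycoprotein of neutrophil granules that endothelium and liver also make, stood at 461 ± 367 TPM in KPC and 163 ± 69.8 TPM in sham mice (SD, n = 5 each; 299 TPM in KPC mice without KPC mouse 1), with overlap in TPM but none in normalized counts and a limma adjusted p of 0.243. Il1r2, the decoy receptor for interleukin 1, stood at 8.15 TPM in KPC mouse 1 and 1.10 to 1.61 TPM in the other KPC mice, against 0.361 to 1.28 TPM in sham mice. Wfdc21 stood at 283 ± 206 TPM in KPC and 156 ± 47.6 TPM in sham mice (limma adjusted p 0.433). Steap4, a metalloreductase also made by fat cells, had a log2 difference of -0.11 (limma adjusted p 0.769). Lrg1, Wfdc21 and Steap4 are named for the highest mean TPM of the list and do not stand for its other genes. The tested genes ran from a log2 difference of -1.11 for Sorl1 to 2.66 for Clec4d (limma adjusted p 0.392 and 0.313).

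Of 14 secondary and tertiary granule genes, 13 were tested, 12 were positive and 0 called, with a median log2 difference of 0.96. Without KPC mouse 1 the median was 0.63 and 1 gene, Hp, was called, beside 0.465% of all tested genes called higher. Chil1 was called without KPC mouse 5 (limma adjusted p 0.0183, and 0.0994 with all mice), where 4 of all 14203 genes were called higher. With any other 1 mouse left out, the limma adjusted p of Chil1 was 0.104 to 0.294. Lcn2, neutrophil gelatinase-associated lipocalin, stood at 38.9, 7.02, 21.5, 7.44 and 6.46 TPM in KPC mice, against 3.49, 1.85, 1.77, 2.09 and 2.84 TPM in sham mice. Its groups did not overlap, its log2 difference was 2.40 ± 0.51 (SE; limma adjusted p 0.102, and 0.0696 without KPC mouse 1), and fat cells and endothelium make it as well.

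Hp, haptoglobin, which adipocytes and liver make, stood at 3406 ± 2302 TPM in KPC and 915 ± 339 TPM in sham mice (limma adjusted p 0.0994), and without KPC mouse 1 its adjusted p from limma was 0.0430. Lyz2, lysozyme of macrophages and neutrophils, stood at 3307 TPM in KPC mouse 1 and 616 to 958 TPM in the other KPC mice, against 379 to 624 TPM in sham mice. Mmp9, gelatinase B, stood at 22.7 ± 4.28 TPM in KPC and 22.3 ± 9.48 TPM in sham mice, with a log2 difference of 0.14 (95% interval -0.40 to 0.67). Chil3 stood at 15.8 TPM in KPC mouse 1 and 0.858 to 2.21 TPM in the other KPC mice, against 0.149 to 1.35 TPM in sham mice. Orm1, an acute-phase glycoprotein that liver and fat also make, had a negative log2 difference, at 282 ± 128 TPM in KPC and 499 ± 253 TPM in sham mice (limma adjusted p 0.402).

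Of 7 primary granule genes, 2 were tested and 0 called. Mpo, myeloperoxidase, stood at 1.97 TPM in KPC mouse 1 and at 0 to 0.0729 TPM in the other KPC mice, against 0 to 0.708 TPM in sham mice. Elane, neutrophil elastase, stood at 2.86 ± 0.652 TPM in KPC and 2.55 ± 1.10 TPM in sham mice. Prtn3, proteinase 3, was far more abundant, at 52.6 ± 34.7 TPM in KPC and 21.4 ± 11.4 TPM in sham mice (limma adjusted p 0.254). Ms4a3 and Bpi were listed at 0 in all mice, so detection varied among the primary granule genes.

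Csf3, which encodes G-CSF, stood at 0.990, 0.101, 0.193, 0.0502 and 0.215 TPM in KPC mice, against 0, 0.0543, 0, 0.0522 and 0.0458 TPM in sham mice. The list of the G-CSF and GM-CSF axis, chosen with earlier results of these data known, holds 14 genes, of which 11 were tested. Beside 0.0493% of all tested genes, 2 of these 11 were called higher in KPC mice. These were Csf2rb2, a receptor chain for interleukin 3, with a log2 difference of 1.28 (limma adjusted p 0.00301), and Cebpd, a C/EBP transcription factor of inflammation and fat cell differentiation, with 1.96 (limma adjusted p 0.0109). The call of Cebpd was lost without KPC mouse 4 (limma adjusted p 0.0605) or sham mouse 4 (0.0520), and Csf2rb2 was called with any 1 mouse left out, at limma adjusted p 0.00137 to 0.0190. Stat3, which relays G-CSF signals, stood at 56.8 ± 7.41 TPM in KPC and 41.4 ± 4.25 TPM in sham mice (limma adjusted p 0.0795). Cebpa and Cebpb, C/EBP factors of myeloid and fat cells alike, had log2 differences of -0.21 and 0.56 (limma adjusted p 0.578 and 0.345). Cebpe, the C/EBP factor of granule gene expression, stood at 0.722 ± 0.468 TPM in KPC and 0.558 ± 0.285 TPM in sham mice.

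Among the ligands of CXCR2, Cxcl1 stood at 23.3, 5.56, 1.44, 0.405 and 1.32 TPM in KPC mice, against 2.21, 1.02, 0, 0.776 and 0.238 TPM in sham mice, with overlap (limma adjusted p 0.406). Cxcl5 stood at 5.11 TPM in KPC mouse 1 and 0 to 0.170 TPM in the other KPC mice, against 0 to 0.0547 TPM in sham mice. Cxcl2 stood at 0.852 TPM in KPC mouse 1 and 0 to 0.0657 TPM in the other KPC mice, against 0 to 0.207 TPM in sham mice. KPC mouse 1 was thus the highest mouse for these 3 ligands. Ppbp, of the same list and also among the platelet markers, had a log2 difference of 1.19 (limma adjusted p 0.180). It was the 1 gene of the 7 tested in this list whose groups did not overlap, beside 2.75% of all tested genes with KPC mice above. Cxcl12, which holds neutrophils in the marrow through CXCR4, stood at 193 ± 52.9 TPM in KPC and 129 ± 26.1 TPM in sham mice (limma adjusted p 0.235). The atypical chemokine receptors Ackr1 and Ackr3 had log2 differences of 0.89 and 0.07 (limma adjusted p 0.0994 and 0.889).

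Chemoattractant receptors (7 of 8 tested), NADPH oxidase genes (6 of 6), and adhesion and rolling genes (12 of 12) were all positive with 0 called, at median log2 differences of 1.08, 0.89 and 0.71. Without KPC mouse 1 the medians were 0.85, 0.52 and 0.55. C5ar1, the receptor for complement C5a, stood at 19.0 ± 7.82 TPM in KPC and 8.74 ± 1.17 TPM in sham mice (limma adjusted p 0.111). It was called without KPC mouse 1 (limma adjusted p 0.0483), beside 0.465% of all tested genes called higher. Ccr1, a chemokine receptor, stood at 13.2 ± 12.4 TPM in KPC and 3.67 ± 0.403 TPM in sham mice (limma adjusted p 0.251), and at 7.83 TPM in KPC mice without KPC mouse 1. Ptafr, the receptor for platelet-activating factor, had a log2 difference of 0.54 (limma adjusted p 0.444).

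Ncf1, a cytosolic oxidase subunit, stood at 17.2 ± 11.2 TPM in KPC and 6.69 ± 0.958 TPM in sham mice (limma adjusted p 0.188), and Icam1, the endothelial adhesion molecule to which neutrophils bind, at 21.0 ± 3.26 TPM in KPC and 13.1 ± 1.23 TPM in sham mice (limma adjusted p 0.0835). Icam1 was called with KPC mouse 1 and sham mouse 1 both left out (limma adjusted p 0.0382), beside 0.303% of all tested genes called higher. Cybb and Cyba, the membrane subunits of the oxidase, had log2 differences of 0.62 and 0.85 (limma adjusted p 0.279 and 0.338), and the endothelial genes Icam2 and Pecam1 of 0.07 and 0.16 (limma adjusted p 0.857 and 0.694). The largest log2 differences among the adhesion and rolling genes were those of the selectin genes Sele, 2.17, and Selp, 1.28 (limma adjusted p 0.0795 and 0.0994). In the interleukin 17 list 5 of 8 genes were tested, 3 positive and 0 called, with a median of 0.01 (0.20 without KPC mouse 1), and Il17a and Il17f were listed at 0 in all mice. Genes of calprotectin receptors and their partners (6 of 7 tested) had a median of 0.32 with 0 called (0.19 without KPC mouse 1).

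S100 relatives (7 of 9 tested) had 5 positive and 2 negative differences, a median of 0.06 and 0 called. Without KPC mouse 1 none of the 7 S100 relatives was positive, and the median was -0.17. Resistin-like genes, Retnlg included, had 3 of 4 tested, 2 positive, 1 negative and 0 called. Retn itself, resistin, stood at 3130 ± 983 TPM in KPC and 4009 ± 678 TPM in sham mice. Ly6 relatives, Ly6g included, had 4 of 7 tested, all positive, 0 called and a median of 0.66. Ly6e was called without KPC mouse 1 (limma adjusted p 0.0475), and Ly6a with both KPC mouse 1 and sham mouse 1 left out (0.0382). In these fits 0.465% and 0.303% of all tested genes were called higher. Ly6c2, the monocyte antigen, stood at 14.5 ± 11.5 TPM in KPC and 6.72 ± 1.17 TPM in sham mice, and at 9.51 TPM in KPC mice without KPC mouse 1.

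The genes whose level ran most like a member's over the 10 mice included 1 of the listed neutrophil genes, Chil3, for S100a9. For Csf3r these were Zbp1, Fgr and Napsa, with Pearson r of 0.988, 0.986 and 0.983 and Spearman rho of 0.976, 0.976 and 0.952 on the log2(normalized count + 1) scale. For S100a9, Xbp1, Chil3 and Zfand6 had r of 0.974, 0.966 and 0.958, and rho of 0.915, 0.976 and 0.903. For S100a8, Casp8, Ccl12 and Cenph had r of 0.971, 0.967 and 0.964, and rho of 0.952, 0.927 and 0.939. Without the 2 mice farthest from the median (KPC mouse 1 and 1 other), r was 0.937 to 0.952 for Csf3r, 0.898 to 0.943 for S100a9 and 0.933 to 0.944 for S100a8. For the other tested members r was 0.948 to 0.957 for Cxcr2 (Txndc12, Prorsd1 and Cnpy2), 0.880 to 0.895 for Retnlg (Otud5, Erich1 and Irf1) and 0.885 to 0.903 for Ltf (Bmp7, Il31ra and Isyna1) with all mice, and 0.844 to 0.932, 0.679 to 0.730 and 0.644 to 0.770 without the 2 farthest. These are the closest of 14203 genes, and with 10 mice of 2 groups and 1 extreme library the order among them is a description only.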

How the data were processed

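RNA was sequenced from 10 samples of mouse visceral adipose tissue, 5 KPC and 5 sham, and group and number were taken from the labels, which do not state that each sample was a separate animal (called a mouse here), so p-values measure the spread between samples. All columns matched 1 sample each. The authors deposited normalized counts, treated as signal values, and TPM. Per the submitters' processing notes, the build was mm10 and the tools were Salmon, DESeq2 and DESeq; their versions, the annotation and strandedness are not stated there. At the best step per library, 31.1% to 47.3% of values up to 30 fell within 0.05 of whole steps; reads could therefore not be recovered, and count models were not used. Both tables carry 1 quantification: their ratio within a gene was constant up to 1 factor per library (median SD 0.00041, log2).

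A mean normalized count of 10 or more was required. Values of log2(normalized count + 1) were fitted in limma 3.58.1 (R 4.3.3) with the trend option, two-sided, with Benjamini-Hochberg adjustment over 14203 genes and a threshold of 0.05. Members were further compared by exact permutation, two-sided, of mean log2(TPM + 0.1), without adjustment. Log2 differences with SE are on the first scale, which understates changes of low genes. The fits were tested on simulated data. The members and all lists were chosen with earlier results of these data known. The rule for named genes took the members, called list genes, up to 3 genes per list with the highest mean TPM, a set written down with the lists and the 3 genes most like each tested member; of these, the genes of neutrophil-related lists are named, and cell type, interleukin 17, calprotectin receptor and relative lists are mostly given by counts. Ppbp, Sele, Selp, Clec4d and Sorl1 were named in addition, after the values were seen. The listed gene BC100530 was not analysed here. Coordinates are from GENCODE vM21 by Ensembl identifier, and promoters from RefSeq for 10 of 10 members by symbol. Alternatives changed the filter, pseudocount, table, scaling, weights, test and block and left out each mouse.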

Additional observations from a re-analysis of the deposited data

Results flagged for a closer look

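In groups of 5 mice, a value is given here where the gap between the extreme mouse and its neighbour is more than 0.71 of the group's whole range (Dixon's criterion). Of the 96 groups examined, 29 met it. Chance gives about 1 in 20 groups only for independent, normally distributed values. Here the values were TPM without a log transformation, and the same mice recurred for every gene. For Ly6g and Cxcl5 in sham mice, 1 mouse had signal and the rest none, which meets the criterion by itself. The count is therefore a description and cannot show an excess over chance.

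Among the neutrophil genes in KPC mice the extreme mouse was KPC mouse 1 each time, at 94.97 TPM for S100a8, 131 TPM for S100a9, 9.69 TPM for Csf3r, 1.42 TPM for Ly6g, 1.04 TPM for Mmp8 and 0.734 TPM for Ngp. In sham mice it was sham mouse 1, at 23.5 TPM for S100a8, 28.6 TPM for S100a9 and 0.172 TPM for Ly6g. Retnlg, Cxcr2, Ltf and Camp had no such mouse in either group.

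KPC mouse 1 was also extreme among KPC mice for other genes named above. For granule genes it stood at 7397 TPM for Hp, 3307 TPM for Lyz2, 15.8 TPM for Chil3, 114 TPM for Prtn3 and 1.97 TPM for Mpo, and at 438 TPM for the oxidase gene Cyba and 105 TPM for Cebpb. For further neutrophil and monocyte genes it stood at 1112 TPM for Lrg1, 645 TPM for Wfdc21, 8.15 TPM for Il1r2 and 34.2 TPM for Ly6c2. For cytokines, chemokines and their partners it stood at 0.990 TPM for Csf3, 23.3 TPM for Cxcl1, 0.852 TPM for Cxcl2, 5.11 TPM for Cxcl5, 34.7 TPM for Ccr1 and 26.6 TPM for Icam1. Among sham mice, sham mouse 4 was highest for Mpo at 0.708 TPM, sham mouse 3 was highest for Cxcl5 at 0.0547 TPM, and sham mouse 5 was lowest for Cebpd at 5.44 TPM.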

How the results depend on the processing

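No tested neutrophil gene was called in 21 of 22 alternatives, and 1 was called with array weights (Csf3r). The median log2 difference of the tested members stayed positive, from 0.26 to 1.61, but these ends come from different sets of members. The lower is from TPM + 1 over all 10 members. The upper is from a mean of at least 50, which left S100a8, S100a9 and Csf3r only. With the same 6 members, leaving out 1 mouse gave 0.78 to 1.30. In the exact test, Ltf reversed to -0.00096 without KPC mouse 1 and sham mouse 1, and leaving out 1 mouse brought S100a8, S100a9 and Ngp (without sham mouse 1), S100a9 and Retnlg (without KPC mouse 4) and Camp (without KPC mouse 3 or 4) to an unadjusted exact permutation p between 0.0238 and 0.0476. Calls over all genes were 7 higher and 1 lower. They were 2 and 0 on TPM with either pseudocount, 18 higher with trimmed means of M values, 172 and 28 with array weights, 0 and 0 with the exact permutation test (1105 higher and 876 lower at an unadjusted p under 0.05), and 43 and 6 without KPC mouse 1 and sham mouse 1. Leaving out 1 mouse gave 1 to 66 higher and 1 to 4 lower. Of the listed genes outside the members, 2 were called higher, 20 with array weights, 6 without KPC mouse 1 and sham mouse 1, 0 with the exact permutation test, and 1 to 9 when leaving out 1 mouse (9 without KPC mouse 1; 1, with Cebpd lost, without KPC mouse 4 or sham mouse 4). The causes were not tested. Samples share only a number: deviations of samples with the same description number correlated by 0.0051 to 0.191. With the replicate block by that number, or by the title number, 3 genes were called higher, none of them a neutrophil gene, with S100a9 at a limma adjusted p of 0.123 and Csf3r at 0.135 under the first. Depth limits Ngp, Camp, Ly6g and Mmp8, which rest on few reads.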
